A study of Rattus norvegicus with 8 samples.

Results

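Gene expression in the normal spinal cord was described from the 4 healthy control arrays of a series of 8, chosen by the words healthy control in the sample titles, with 1 array for each rat. The other 4 arrays, from rats given 50 µg of myelin basic protein (MBP) to induce experimental autoimmune encephalomyelitis, were not compared here. The healthy rats, numbered 193, 194, 195 and 196, were virgin female Lewis rats that received no treatment. The labels give their age as 16 weeks and the collection as day 13 of the experiment, while the methods give a younger age at induction with controls matched for age, and their littermates were the immunized animals. The whole cord was blown out of the spinal column by fluid pressure and snap frozen, and its total RNA was amplified, biotinylated and hybridized to the Affymetrix Rat Exon 1.0 ST array. Bulk RNA from the whole cord holds all its cell types together with any attached meninges, nerve roots and blood, so that fewer cells of a type and less RNA per cell cannot be told apart.

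The spinal cord carries long axon tracts in its outer white matter and nerve cell bodies in its inner grey matter. Oligodendrocytes wrap the axons of the tracts in myelin, a membrane rich in cholesterol and in lipids that carry a sugar, and astrocytes take up glutamate and buffer potassium around the neurones. Inhibitory neurones of the cord release glycine as well as GABA, motor neurones release acetylcholine, and the dorsal horn receives sensory input through peptides and glutamate. Microglia are the resident macrophages, and the healthy cord holds few lymphocytes.

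The deposited values are log2 hybridization signals of 8793 transcript clusters, a transcript cluster being the group of probe sets that stands for a gene. Probes differ in how well they bind, so that the place of a cluster in the ranking is that of its signal and only approximates the abundance of its transcript. Values are given below as mean ± SD of the 4 rats, and where 4 values follow each other they belong to rats 193, 194, 195 and 196 in that order. Of the clusters, 7603 carried 1 gene symbol in the platform table and could be named, 409 carried several, and 781 were not listed there. The named clusters stood for 7589 genes. The mean log2 signal ran from 2.30 to 12.45, with a median of 4.98 and quartiles of 4.05 and 6.66. It was above 8 for 1153 clusters, above 10 for 225 and above 11 for 67. A cluster is called high here in the top 10 percent of the ranking (mean above 8.43), upper between percentiles 75 and 90, middle between percentiles 25 and 75, and low below percentile 25.

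The level at which the signal can no longer be told from background was read from genes that the cord of a female rat has little reason to use. These were 157 genes of other organs, such as those of sperm, liver and pancreas, and 123 olfactory, vomeronasal and taste receptor genes. Their means had a median of 3.79, and 95 percent of them lay at or below 5.31, which is called the upper limit here. By this limit 4973 clusters, 56.6% of all, were within the background range on average, 3451 (39.2%) were above it in every rat and 4530 (51.5%) in no rat. The symbol pattern used for the receptors missed those with the newer names that begin with Or. With all 964 receptor genes on the array table included, a reference of 1121 genes chosen after the values were seen, the limit fell to 4.81, called the lower limit here, and 4006 clusters (45.6%) were at or below it. The 967 clusters between the limits are named as such below. The 964 receptor genes had a median of 3.48, and 95 percent of them lay at or below 4.69.

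**Figure D1:**
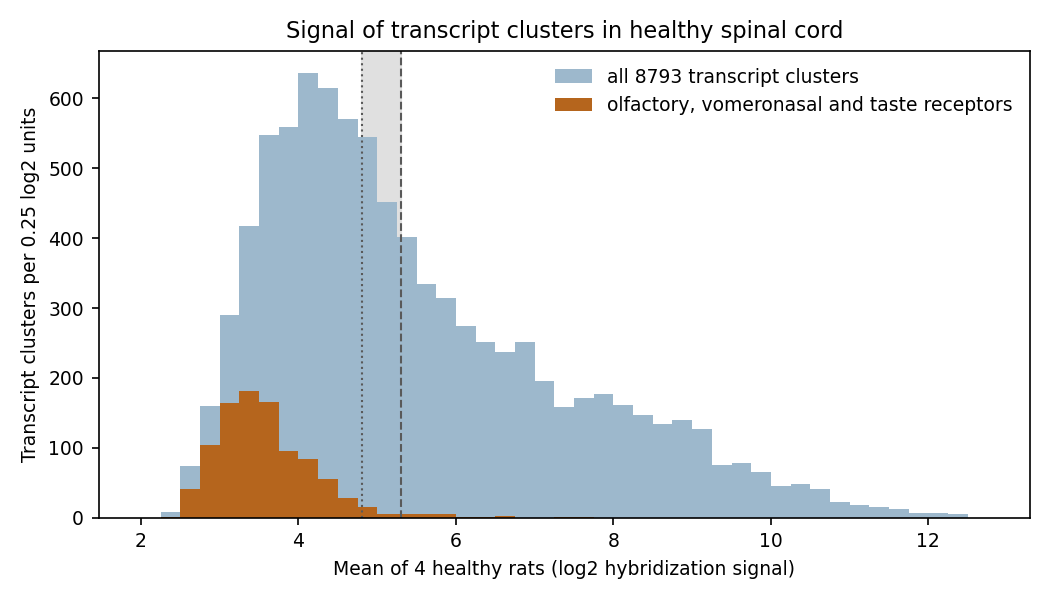
Number of transcript clusters (vertical axis, per 0.25 log2 units) by mean log2 hybridization signal over the 4 healthy rats (horizontal axis), for all 8793 clusters (blue) and the 964 olfactory, vomeronasal and taste receptor genes (brown). The dotted and dashed lines are the lower (4.81) and upper (5.31) limits of the background range, with the zone between them shaded; the receptor genes gather around 3.48 and the other clusters reach 12.45.

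A signal within this range does not show that a gene is silent. The ribosomal proteins Rpl4 (3.47 ± 0.18) and Rpl13a (3.59 ± 0.07), which every cell needs to build its ribosomes, and the glycolytic enzyme Eno1 (4.10 ± 0.26) were there too. A signal above it is likewise no proof of use. Of the 280 reference genes 14 lay above the upper limit, with the vomeronasal receptor Vom1r92 (7.40 ± 0.18) and the pancreatic polypeptide gene Ppy (6.32 ± 0.38) among the highest, and the hypothalamic hormone Avp at 6.29 ± 0.32.

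The 4 arrays agreed closely. Pearson's r between 2 rats was 0.967 to 0.991 and Spearman's rho 0.958 to 0.985 over the 8793 clusters; clusters are not independent replicates. The median SD of a cluster was 0.20, and 464 clusters (5.28%) had an SD above 0.5. The array of rat 195 stood apart, with a narrower spread of values. Its interquartile range was 2.23, against 2.93, 2.61 and 2.71 for rats 193, 194 and 196. In the lowest decile of clusters its values lay 0.37 above the mean of the other rats, and in the ninth decile they were lower by 0.26 (difference -0.26). Without rat 195 the median SD fell to 0.14 and 194 clusters had an SD above 0.5. Rat 195 was farthest from the median of the others in 4475 clusters (50.9%). It had the highest value in 4047 of all 8793 clusters and in 739 of the 964 receptor genes (76.7%). The median of these receptor genes was 3.86 there and 3.27, 3.47 and 3.35 in rats 193, 194 and 196. Values of single genes in rat 195 are to be read beside this shift of the whole array.

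**Figure D2:**
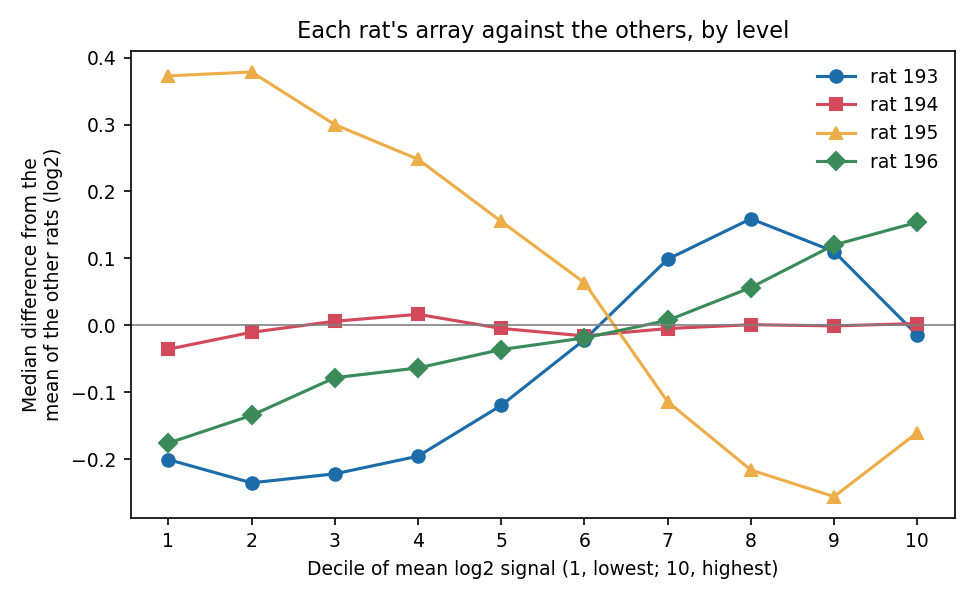
Median difference between each rat's log2 signal and the mean of the other 3 rats (vertical axis) in each decile of clusters by mean signal (horizontal axis, 1 lowest to 10 highest). Rat 195 ran from 0.37 in the lowest decile to -0.26 in the ninth, and rat 194 stayed between -0.04 and 0.02 in all 10.

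The top of the ranking was shared by neurones, myelin and the general machinery of the cell. The highest named gene, and the highest of all clusters, was Snap25, a membrane protein needed for the fusion of synaptic vesicles, at 12.43, 12.46, 12.36 and 12.55 (12.45 ± 0.08). It was followed by the neurofilament gene Nefm (12.13 ± 0.12), the ubiquitin ligase subunit Skp1 (12.04 ± 0.15), the neuronal calcium sensor Vsnl1 (11.97 ± 0.10), the nucleolar protein Ncl (11.91 ± 0.12), the mitochondrial channel Vdac1 (11.85 ± 0.17) and the MHC class I light chain B2m (11.85 ± 0.17). The gene in place 30 among the named, Enpp2, held place 58 among all clusters, the clusters between being without a single symbol. Of the 30 highest named genes, 28 were within the first 100 clusters of the array of every rat, and the lowest place that any of them took on an array was 124. Nearly all neighbours in this order had overlapping values, 28 of the 29 pairs among the first 30 and all 8792 pairs of neighbours over the whole ranking. Of all 435 pairs among the first 30, 207 overlapped, so that the ranking separates genes that lie far apart in it and not neighbours.

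Genes of several cell types stood side by side among the 30. Neuronal members were Snap25, Nefm, Nefl (11.16 ± 0.15), Vsnl1, the surface protein Thy1 (11.20 ± 0.22), the Rac regulator Chn1 (11.13 ± 0.45) and the neuronal membrane protein Gpm6a (11.13 ± 0.13). Myelin and its cells were represented by Ermn (11.75 ± 0.13), which binds actin in the outer myelin, the galactolipid enzyme Ugt8 (11.70 ± 0.22), Mbp (11.41 ± 0.09), which holds the membrane layers of myelin together, and Enpp2 (11.12 ± 0.35), which makes the signalling lipid lysophosphatidic acid. Gpm6b (11.83 ± 0.22), a relative of the main protein of myelin, is made by glia and neurones. Astrocytes were represented by the secreted protein Sparcl1 (11.63 ± 0.10) and by Aldoc (11.35 ± 0.31), the brain form of aldolase. Most of the rest work in every cell. They include the 14-3-3 protein Ywhae (11.75 ± 0.03), the small GTPases Rab10 (11.68 ± 0.10) and Cdc42 (11.13 ± 0.15), the endoplasmic reticulum chaperones Canx (11.49 ± 0.11) and Hsp90b1 (11.15 ± 0.09), the respiratory chain subunit Cox7b (11.31 ± 0.17) and the ribosomal protein Rpl37a (11.51 ± 0.21). Further ones are Skp1, Ncl, Vdac1, B2m, the co-chaperone Dnaja1 (11.24 ± 0.14) and the ubiquitin-conjugating enzyme Ube2d3 (11.31 ± 0.13). The selenoprotein Selenot (11.27 ± 0.13) and Serinc1 (11.13 ± 0.13) complete them. Apeg3 (11.43 ± 0.11), not counted with any of these groups, is the last of the 30.

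Genes of different level differed in their promoters. A promoter from the RefSeq annotation of the rat build GRCr8 was found for 6222 of the 7589 named genes (82.0%), as the 300 bases from 250 before to 50 after the start of transcription. Vertebrate promoters of widely used genes often lie in CpG islands, which are stretches where the dinucleotide CG has been kept, while many promoters of tissue-specific genes lack them and hold a TATA box. The median number of CG dinucleotides rose from 1 in the lowest decile of clusters to 9 in the fourth, 19 in the sixth and 24 in the highest, beside 7 over all 33469 promoters of the table. The letters TATAAA, sought on both strands and with no other motif beside them, occurred in 34.2% of the promoters in the lowest decile, 7.71% in the highest and 14.2% of all promoters of the table. The receptor genes fill much of the lowest decile. Without them the median number of CG ran from 3 to 24 and the share with TATAAA from 20.5% to 7.71%. With the receptor genes included, the median share of G and C was 38% in the lowest decile and 62% in the highest. The difference in TATAAA cannot be told apart from this difference in base content. These counts describe the letters of the window and do not show that a factor binds there.

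The promoters of 6 genes are printed to show this range, chosen after their values were seen. They are of 3 genes near the top of the ranking (Vsnl1, Ugt8 and Mobp), 2 of the 15 named genes with the largest SD between rats (Myoc and Myl1) and a T cell gene in the background range (Cd3d). Each run gives the 250 bases before the start of transcription in GRCr8, 5′ to 3′ on the strand of the gene, with CG dinucleotides and TATAAA or its reverse TTTATA in capitals.
Vsnl1 (chr6:39878557-39878806, minus strand): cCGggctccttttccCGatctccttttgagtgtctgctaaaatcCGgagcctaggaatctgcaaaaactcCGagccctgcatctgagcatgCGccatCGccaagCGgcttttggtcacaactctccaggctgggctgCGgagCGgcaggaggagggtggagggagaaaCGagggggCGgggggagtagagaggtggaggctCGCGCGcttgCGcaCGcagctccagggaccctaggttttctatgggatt
Ugt8 (chr2:217007168-217007417, minus strand): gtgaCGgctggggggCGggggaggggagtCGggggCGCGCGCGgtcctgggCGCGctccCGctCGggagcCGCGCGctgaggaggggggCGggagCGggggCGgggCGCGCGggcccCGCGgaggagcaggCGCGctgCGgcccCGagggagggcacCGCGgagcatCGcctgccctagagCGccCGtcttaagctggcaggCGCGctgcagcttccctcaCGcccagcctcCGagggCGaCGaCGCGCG
Mobp (chr8:128746982-128747231, plus strand): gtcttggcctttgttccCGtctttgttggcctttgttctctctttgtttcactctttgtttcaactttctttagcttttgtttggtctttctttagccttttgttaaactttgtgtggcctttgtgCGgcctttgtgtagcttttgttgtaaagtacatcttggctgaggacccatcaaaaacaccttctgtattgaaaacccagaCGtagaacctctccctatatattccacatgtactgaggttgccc
Myoc (chr13:77509713-77509962, plus strand): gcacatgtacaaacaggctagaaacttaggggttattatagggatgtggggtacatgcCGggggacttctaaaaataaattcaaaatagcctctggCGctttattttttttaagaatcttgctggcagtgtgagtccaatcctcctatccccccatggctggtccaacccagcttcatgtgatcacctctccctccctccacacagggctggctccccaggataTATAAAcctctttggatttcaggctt
Myl1 (chr9:75907697-75907946, minus strand): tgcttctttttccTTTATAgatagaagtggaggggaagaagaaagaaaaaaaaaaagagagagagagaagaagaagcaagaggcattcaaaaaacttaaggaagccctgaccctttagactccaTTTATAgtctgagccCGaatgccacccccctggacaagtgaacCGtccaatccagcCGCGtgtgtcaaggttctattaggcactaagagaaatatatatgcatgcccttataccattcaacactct
Cd3d (chr8:54185269-54185518, plus strand): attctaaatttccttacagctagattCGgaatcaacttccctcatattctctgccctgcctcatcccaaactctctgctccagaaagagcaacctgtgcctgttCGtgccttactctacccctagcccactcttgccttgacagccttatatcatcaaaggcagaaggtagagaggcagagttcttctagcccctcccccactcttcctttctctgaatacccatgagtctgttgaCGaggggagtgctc
The runs hold 16 CG in Vsnl1, 40 in Ugt8, 3 in Mobp, 2 in Myoc, 4 in Myl1 and 3 in Cd3d. Level and CG count thus did not go together in every gene. Mobp, a myelin protein gene at 10.72 ± 0.09, had as few as Cd3d at 3.77 ± 0.25. These 6 genes do not show how often that is so. Myoc has TATAAA in its own direction 26 bases before the start, and Myl1 has TTTATA at 2 places.

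Neuronal genes were high as a group. None of the 18 measured members of the list of general neuronal genes was within the background range, against 56.6% of all clusters. Their median lay at percentile 92.2 and 10 of them were in the high band. Neurofilament genes, which encode the intermediate filaments that fill large axons, were uneven in signal. The light chain Nefl was at 11.00, 11.07, 11.31 and 11.28, the middle chain Nefm at 12.06, 12.09, 12.06 and 12.31, and the heavy chain Nefh at 9.12, 8.99, 8.75 and 9.27. All 4 values of Nefm lay above all those of Nefl, and all those of Nefl above those of Nefh, on different probes. The lowest members of the list were the tau gene Mapt (6.61 ± 0.26), the microtubule regulator Stmn3 (6.57 ± 0.07) and the RNA-binding protein Elavl3 (6.36 ± 0.28), still above both limits. Genes of synaptic vesicles and release lay somewhat lower, with a median at percentile 84.5 over 18 members. Vamp1 (10.87 ± 0.14), a vesicle SNARE protein, lay above its relative Vamp2 (7.66 ± 0.11) in every rat. Syt11 (10.40 ± 0.26), a synaptotagmin, and the SNARE-recycling ATPase Nsf (9.68 ± 0.37) were the other high members, with Sv2c. At the lower end, Syngr1 (4.45 ± 0.53) was below both limits and Stx1a (5.26 ± 0.09) and Bsn (5.29 ± 0.13) between them.

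**Figure D3:**
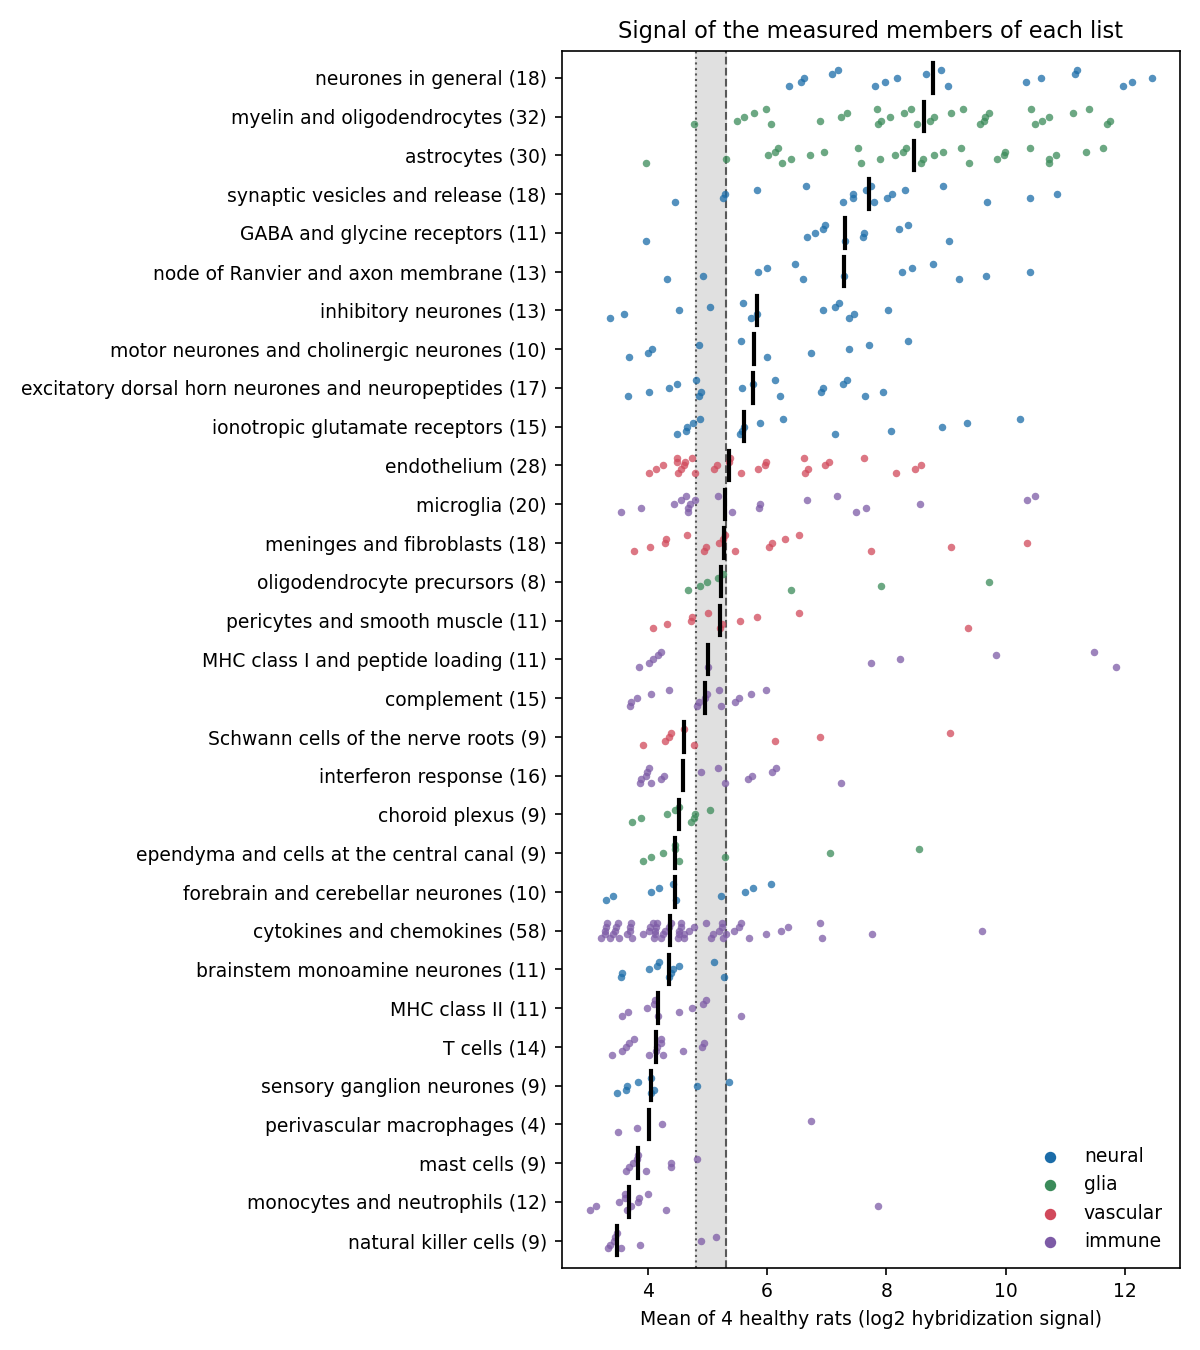
Mean log2 hybridization signal over the 4 healthy rats (horizontal axis) of each measured member (points) of the lists of neural, glial, vascular and immune genes, with the number of members in brackets and the median as a black bar. The shaded zone lies between the lower (4.81) and upper (5.31) background limits; the medians of the neuronal, myelin and astrocyte lists lie above 8, and those of the lymphocyte lists below the lower limit.

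Both inhibitory transmitters of the cord left their marks. The glutamate decarboxylase genes, whose products make GABA, were at 8.01, 7.95, 7.81 and 8.32 for Gad2 and 7.04, 6.96, 6.76 and 6.98 for Gad1, and the glycine transporter of inhibitory terminals, Slc6a5, was at 7.66, 7.51, 7.08 and 7.62. Gad2 lay above Gad1 in all 4 rats, and Slc6a5 fell in the upper band. The vesicular transporter of both transmitters, Slc32a1 (5.83 ± 0.09), was in the middle band and above both limits. The developmental factors Lhx5 (3.61 ± 0.16) and Lhx1 (3.37 ± 0.26) of these neurones were within the background range, as were 4 of the 13 members in all (30.8%, beside 56.6% of all clusters). The receptors matched to these transmitters were in the upper band, with 9 of 11 there and a median at percentile 81.6. The glycine receptor subunits Glra1 (8.36 ± 0.29) and Glrb (8.22 ± 0.04) stood near the GABA receptor subunit Gabrg1 (9.05 ± 0.33), the highest of the list. Gabrb1 was at 8.05, 7.76, 6.64 and 8.05, lowest in rat 195. Gabrd (3.97 ± 0.15), a subunit of receptors outside the synapse, was the single member within the background range.

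Excitatory and cholinergic genes covered a wider range. The vesicular glutamate transporter Slc17a6, the form of most excitatory neurones of the cord, was at 8.38, 7.95, 7.29 and 8.19, in the upper band. Its relatives Slc17a7 (4.35 ± 0.17) and Slc17a8 (3.67 ± 0.30) were below both limits. The tachykinin gene Tac1, the source of substance P, was at 7.53, 7.50, 7.47 and 8.10, with rat 196 above the other 3, and the substance P receptor Tacr1 was at 7.34 ± 0.40. Among the ionotropic glutamate receptors, the AMPA receptor subunits Gria2 (10.25 ± 0.13), Gria4 (9.35 ± 0.17) and Gria3 (8.93 ± 0.24) were high, while Grin2d (4.65 ± 0.10), Grik3 (4.65 ± 0.11) and Grin3b (4.50 ± 0.25) were the lowest. Of the cholinergic genes, the choline transporter Slc5a7 was at 7.91, 7.76, 7.15 and 8.03, in the upper band. The vesicular acetylcholine transporter Slc18a3 (4.86 ± 0.13) lay between the limits, and the motor neurone factor Isl1 (3.69 ± 0.13) below both. The muscarinic receptor Chrm2 (8.37 ± 0.30) was the highest of this list. Calca (6.74 ± 0.33), the gene of calcitonin and of the peptide CGRP, and peripherin (Prph, 5.56 ± 0.13), a filament of motor and sensory neurones, were above both limits; Prph was named after its value was seen.

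Genes of the axon membrane were well represented, with 11 of 13 members above both limits, beside 43.4% of all clusters. Cntn1 (10.41 ± 0.33), a cell adhesion protein beside the node of Ranvier, the potassium channel Kcna1 (9.67 ± 0.24) and the anchoring protein Epb41l3 (9.22 ± 0.15) were the highest. The sodium channel of mature nodes, Scn8a, was at 7.70, 7.34, 6.81 and 7.35, the nodal adhesion gene Nfasc at 6.61 ± 0.33 and Cntnap1, which binds the axon to the myelin loops, at 5.84 ± 0.16. Genes that mark neurones of other places were also looked at. All 11 genes of brainstem monoamine and hypothalamic neurones were within the range, beside 56.6% of all clusters, among them tyrosine hydroxylase (Th, 4.02 ± 0.23), tryptophan hydroxylase 2 (Tph2, 3.55 ± 0.21) and the serotonin transporter Slc6a4 (4.36 ± 0.16). The axons of such neurones end in the cord while their cell bodies lie elsewhere. Of 9 genes of sensory ganglion neurones 8 were within the range, with the sodium channels Scn10a (3.63 ± 0.28) and Scn11a (3.48 ± 0.23) below both limits and the homeobox gene Drgx (5.37 ± 0.12) just above the upper. The axons of ganglion neurones enter the cord, and Drgx is also used in the dorsal horn. Of 10 genes chosen for forebrain and cerebellar neurones 7 (70.0%) were within the range, not far from the 56.6% of all clusters, and Gabra6, a subunit of cerebellar granule cells, was at 3.30 ± 0.28. Zic1 (6.07 ± 0.16), Barhl2 (5.77 ± 0.21) and the phosphatase inhibitor Ppp1r1b (5.64 ± 0.07) were above it. Zic1 and Barhl2 are also used in the dorsal cord, so that they mark position less well than the others. Homeobox genes of the Hox clusters set the position of cells along the body, and both that were measured, Hoxb7 (5.66 ± 0.24) and Hoxa2 (5.47 ± 0.14), were above both limits.

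**Figure D4:**
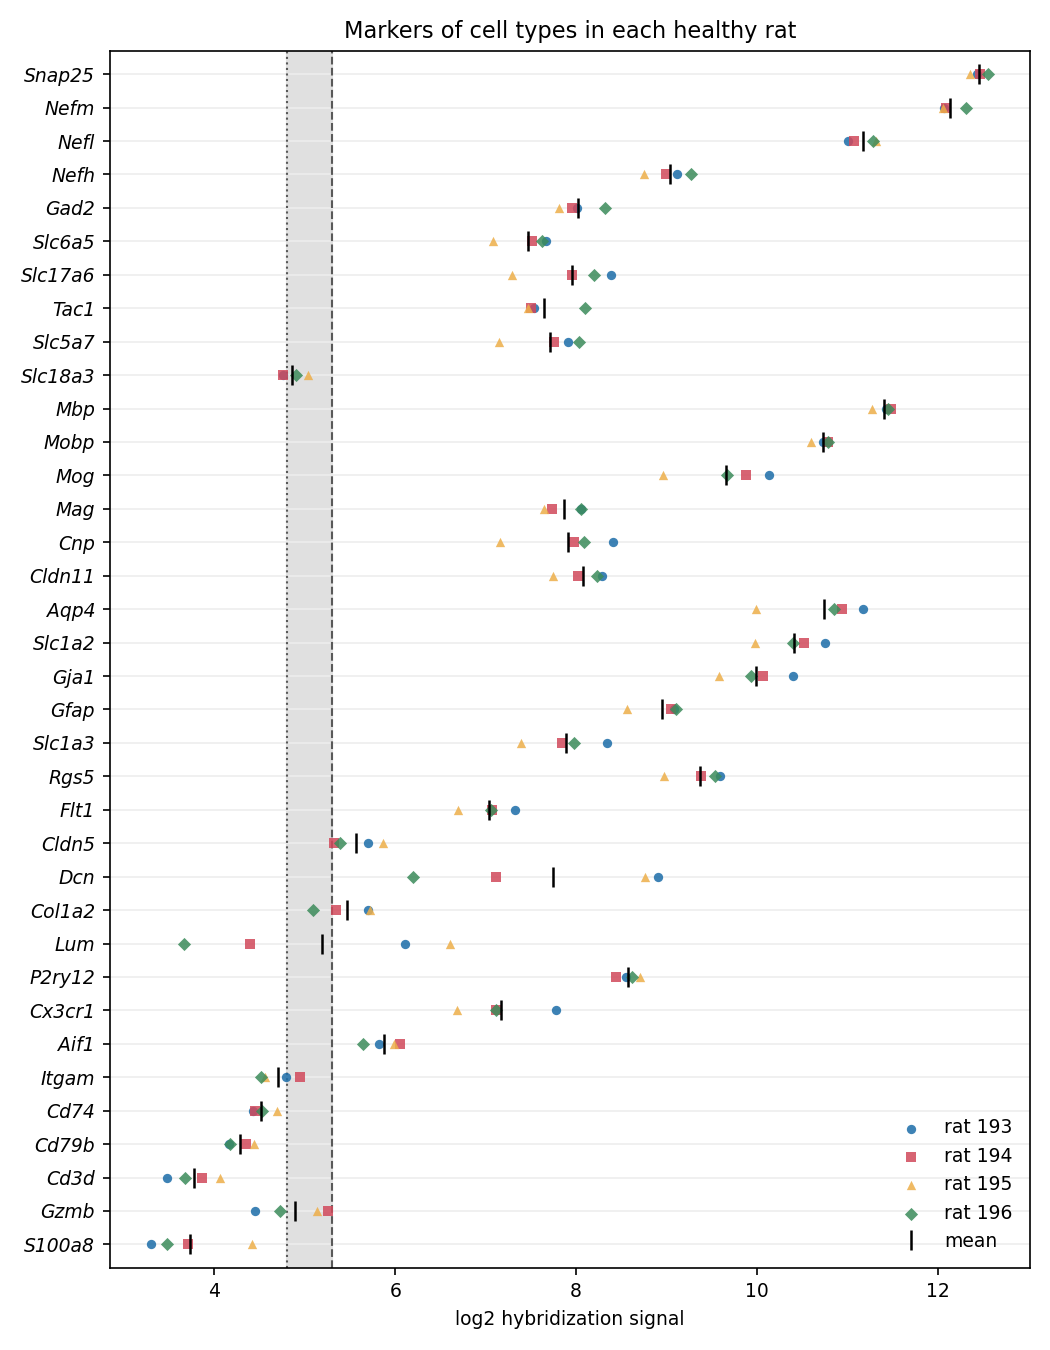
Log2 hybridization signal (horizontal axis) of 36 marker genes of neurones, myelin, astrocytes, vessels, meninges, microglia and blood leukocytes in each of the 4 healthy rats (symbols), with the mean as a black tick and the zone between the background limits (4.81 and 5.31) shaded. Most genes hold together within 1 log2 unit, while Dcn and Lum split into rats 193 and 195 above rats 194 and 196.

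Myelin genes were the most fully represented of the glial lists. Of 32 measured genes 17 were in the high band, 9 in the upper and 6 in the middle, with a median at percentile 91.1, and the single member within the background range was the transcription factor Olig1 (4.77 ± 0.03). The proteins of compact myelin were high. Mbp was at 11.42, 11.48, 11.27 and 11.45 and Mobp at 10.73, 10.78, 10.60 and 10.78. Mog, a minor protein of the myelin surface, was at 10.13, 9.87, 8.96 and 9.67, with a span of more than 1 log2 unit from rat 193 to rat 195. For Mbp a second transcript cluster gave 5.69 ± 0.15, so that the position of a gene can depend on which of its clusters is read. The proteins of uncompacted myelin and of the tight junctions between its layers were lower and lay in the upper band. The enzyme Cnp was at 8.41, 7.98, 7.16 and 8.09, the adhesion protein Mag at 8.05, 7.73, 7.64 and 8.05, and the tight-junction protein Cldn11 at 8.29, 8.02, 7.75 and 8.23. Rat 195 had the lowest value for Mbp, Mobp, Mog, Cnp, Mag and Cldn11 alike. The lowest 3 of the list were Ppp1r14a (5.62 ± 0.30), the matrix protein Hapln2 (5.50 ± 0.14) and Olig1.

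The enzymes that build myelin lipid were likewise in the upper part of the ranking. The 16 sterol synthesis genes had a median at percentile 81.4, and none was at or below the lower limit. Insig1 (10.28 ± 0.07), which retains the sterol sensor in the endoplasmic reticulum, Sc5d (10.28 ± 0.20) and Fdft1 (10.13 ± 0.46) were the highest, and squalene epoxidase (Sqle) was at 9.31, 9.57, 8.79 and 9.31. The 17 genes of fatty acid and myelin lipid synthesis had a median at percentile 82.9, led by the desaturase Scd2 (11.04 ± 0.33), the acyl-CoA synthetase Acsl3 (10.42 ± 0.16) and the elongase Elovl5 (9.19 ± 0.24). The related desaturase Scd was at 5.76 ± 0.05, far below Scd2. Tm7sf2 (4.89 ± 0.18) and Mvd (5.02 ± 0.15) of the sterol list and Fads3 (4.94 ± 0.17) and Pcyt2 (4.88 ± 0.21) of the lipid list lay between the limits.

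Genes of oligodendrocyte precursors had a median at percentile 54.8, below that of the myelin list. Of 8 measured genes, Ptprz1 (9.72 ± 0.16) and Vcan (7.91 ± 0.39), which astrocytes and other cells also make, were well above background. Tnr was at 6.41 ± 0.50, and 5 (62.5%) were within the range, near the 56.6% of all clusters. The defining proteoglycan gene Cspg4 (5.00 ± 0.19), also used by pericytes, was between the limits, and the signalling factor Bmp4 (4.67 ± 0.04) below both.

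Astrocyte genes stood as high as those of myelin. The 30 measured genes had a median at percentile 90.1, with 15 in the high band and 1, the transcriptional inhibitor Id3 (3.98 ± 0.12), within the background range. Sparcl1, Aldoc and the calcium-binding protein S100b (10.84 ± 0.20) led the list. The water channel Aqp4 was at 11.17, 10.94, 9.98 and 10.85 and the glutamate transporter Slc1a2 at 10.75, 10.52, 9.97 and 10.40. The gap junction gene Gja1 was at 10.39, 10.06, 9.58 and 9.93. In all 3, rat 193 was highest and rat 195 lowest. The filament gene Gfap, the usual marker of astrocytes, was at 9.09, 9.05, 8.56 and 9.11, with rat 195 below the other 3. The second glutamate transporter, Slc1a3, at 7.89 ± 0.39, was in the upper band and below Slc1a2 in every rat. The lowest members besides Id3 were the growth factor receptor Fgfr3 (5.32 ± 0.15), just above the upper limit, and Id4 (6.01 ± 0.06).

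Ependymal cells line the central canal and bear cilia. Of their 9 measured genes 7 (77.8%) were within the background range, beside 56.6% of all clusters. The exceptions were Cd24 (8.55 ± 0.22), a surface protein of many neural cells, and Prom1 (7.06 ± 0.24), which oligodendrocytes also use. The cilium gene Rsph1 was at 4.46 ± 0.16. Choroid plexus lies in the ventricles of the brain and not in the cord, and all 9 of its genes were within the range, with its main product transthyretin (Ttr) at 4.41, 3.84, 4.42 and 4.61, below the lower limit in every rat.

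Vascular genes were spread over the middle of the ranking. Of 28 endothelial genes 13 (46.4%) were within the background range, beside 56.6% of all clusters, 2 were high and 5 upper, with a median at percentile 57.9. The organic anion transporters Slco1c1 and Slco1a4 of the blood-brain barrier were the highest, at 8.75, 8.59, 8.23 and 8.77 and 8.42, 8.34, 8.71 and 8.50, followed by the caveolar protein Cav1 at 9.11, 7.87, 7.66 and 7.98. The growth factor receptor Flt1 was at 7.32, 7.07, 6.69 and 7.06, and the tight-junction protein Cldn5 at 5.70, 5.33, 5.86 and 5.39, above the upper limit in all 4 rats. The lowest were the transcription factor Foxq1 (4.26 ± 0.32), the amino acid transporter Slc38a5 (4.14 ± 0.09) and Apold1 (4.03 ± 0.45). Of 11 genes of pericytes and smooth muscle 7 (63.6%) were within the range, near the share of all clusters. The pericyte regulator Rgs5 was at 9.59, 9.38, 8.97 and 9.53, in the high band, while the defining receptor Pdgfrb (5.21 ± 0.24) lay between the limits. The smooth muscle protein Tagln (5.83 ± 0.28) was above both and desmin (Des, 4.09 ± 0.21) below both. Of 5 genes of red blood cells, the haemoglobin chain Hbb-b1 was at 7.76, 8.33, 7.48 and 7.83 and the enzyme Bpgm, also used in other cells, at 8.00 ± 0.32, while the embryonic chain Hbe1 (3.43 ± 0.18), the chain gene Hbg1 (3.77 ± 0.30) and the anion exchanger Slc4a1 (4.35 ± 0.15) were below both limits.

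Meningeal genes differed between the rats more than the genes of the lists above. The median SD of the 18 measured meningeal and fibroblast genes was 0.38, against 0.20 over all clusters. The small proteoglycan decorin (Dcn) was at 8.91, 7.12, 8.76 and 6.20, and lumican (Lum) at 6.11, 4.39, 6.61 and 3.67. Rats 193 and 195 were both above rats 194 and 196, by at least 1.65 log2 units for Dcn and 1.71 for Lum. The collagen gene Col1a2 followed the same order at 5.70, 5.34, 5.72 and 5.10 over a smaller span, and Col3a1 was at 4.92, 4.73, 5.40 and 4.72. In 11 of the 18 genes (61.1%) both of these rats lay above the other 2, beside 9.17% of all clusters. The list medians were 5.69, 5.18, 5.63 and 4.81. The same held for 5 of 9 genes of Schwann cells (55.6%), the myelin-forming cells of the nerve roots. Their myelin protein gene Pmp22, which fibroblasts also use, was at 10.28, 8.49, 9.29 and 8.19, and the sodium channel Scn7a at 6.75, 5.40, 7.11 and 5.31. The transcription factor Egr2 (4.28 ± 0.29) and the Schwann cell gene Prx (4.78 ± 0.26) were below both limits in the mean. It was also seen in 2 of 4 genes of perivascular macrophages, in 10 of 28 endothelial genes (35.7%), in 3 of 9 each of the ependymal and choroid plexus genes (33.3%) and in 3 of 11 pericyte and smooth muscle genes (27.3%), and in 0 of 32 myelin genes. The reverse order, held by 9.91% of all clusters, was found in 5 of 11 genes of cell division (45.5%) and 13 of 41 of oxidative phosphorylation (31.7%). It was found in 5 of 16 of sterol synthesis (31.3%), 3 of 11 of class I presentation (27.3%) and 8 of 32 of myelin. The proteasome had it in 6 of 24, monocytes and neutrophils in 3 of 12 and the chaperones in 4 of 18. This order was looked for after the values were seen. The array of rat 195 lay lower in the upper deciles of clusters (-0.26 in the ninth). Rat 195 was lowest in 24 of the 32 myelin genes and 19 of 30 astrocyte genes, beside 2551 of all 8793 clusters. Counts of either order in lists of high signal, the 0 of 32 among them, cannot be told apart from this shift. How much membrane and root was left on each cord was not recorded in the sources used here and its part in these differences was not tested. The matrix protein Sparc (10.35 ± 0.40), also a microglial gene, and the prostaglandin synthase Ptgds (9.08 ± 0.36), also made by oligodendrocytes, were the highest of the meningeal list. Igf2 (4.29 ± 0.11), Slc47a1 (4.04 ± 0.16) and Fmod (3.77 ± 0.13) were the lowest and lay below both limits.

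Microglial genes covered nearly the whole ranking. Of 20 measured genes 10 (50.0%) were within the background range, near the 56.6% of all clusters, and 3 were high, with a median at percentile 56.4. The lysosomal protease cathepsin S (Ctss) was at 10.98, 10.71, 9.79 and 10.47, and the ADP receptor P2ry12, a marker of resting microglia, at 8.55, 8.44, 8.70 and 8.61. P2ry12 held within 0.26 log2 units over the rats. The fractalkine receptor Cx3cr1 was at 7.77, 7.12, 6.69 and 7.11 and the calcium-binding protein Aif1, widely used to stain microglia, at 5.82, 6.05, 5.99 and 5.64, both above the upper limit in every rat. The integrin Itgam was at 4.80, 4.94, 4.56 and 4.52, within the background range on average, and the lowest members were the transcription factor Irf8 (4.45 ± 0.05), the nucleotide receptor P2ry6 (3.90 ± 0.20) and Selplg (3.55 ± 0.38). Genes of perivascular macrophages were within the range for 3 of 4, with F13a1 at 3.51 ± 0.24. The exception, the endocytic adaptor Dab2 (6.73 ± 0.12), is used by other cells too.

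Genes of blood leukocytes were at background almost throughout. All 14 T cell genes, both B cell genes, all 9 natural killer cell genes and all 9 mast cell genes were within the range, beside 56.6% of all clusters. The T cell receptor subunit Cd3d was at 3.48, 3.87, 4.06 and 3.68 and the B cell receptor subunit Cd79b at 4.17, 4.35, 4.44 and 4.17, below the lower limit in every rat. Granzyme B (Gzmb) was at 4.45, 5.25, 5.14 and 4.73, with the range of the rats reaching the zone between the limits. Cd4, which microglia and macrophages of the rat also carry, was the highest T cell gene at 4.94 ± 0.24. Of 12 genes of monocytes and neutrophils 11 were within the range. The exception was the lysozyme gene Lyz2 (7.86 ± 0.42), which macrophages of many tissues use, while the chemokine receptor Ccr2 (3.85 ± 0.26) and the neutrophil proteins S100a8 (3.73 ± 0.49) and S100a9 (3.65 ± 0.28) were below both limits.

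Genes that present antigen lay on both sides of the limits. Of 11 genes of class I and of peptide loading 6 (54.5%) were within the background range, near the 56.6% of all clusters. The class I light chain B2m, at 11.75, 11.94, 11.66 and 12.04, was among the 30 highest genes, and the chaperones Canx and Pdia3 (9.83 ± 0.25), which also serve other proteins, were high. The inducible peptide transporter and proteasome genes were not. Tap2 (4.09 ± 0.16), Psmb8 (4.03 ± 0.15) and Psmb9 (3.86 ± 0.14), the lowest 3 of the list, were below both limits. Of 11 class II genes 10 (90.9%) were within the background range. The invariant chain Cd74 was at 4.43, 4.45, 4.69 and 4.53 and the class II chain RT1-Da at 3.82, 4.01, 4.29 and 4.36. The exception was the peptide editor RT1-DMa (5.56 ± 0.25).

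Complement, cytokine and interferon genes were few in the upper part of the ranking, with 0 of 15, 4 of 58 and 1 of 16 in the upper or high band. Of all 8793 clusters, 1319 were in the upper and 880 in the high band. Of 15 complement genes 11 (73.3%) were within the background range, beside 56.6% of all clusters, and 4 were above the upper limit, led by C3 (5.99 ± 0.33), and the subunits of the first component C1qa (4.99 ± 0.24), C1qb (5.52 ± 0.24) and C1qc (4.35 ± 0.36) lay on both sides of it. Of 58 cytokine and chemokine genes 46 (79.3%) were within the range and 12 above the upper limit. The highest was Mif at 9.72, 9.50, 9.61 and 9.61, a small protein that most cells store, followed by the chemokine Cxcl14 (7.76 ± 0.34) and the neurotrophic factor Cntf (6.93 ± 0.19), which glia make. The inflammatory cytokines Tnf, Il1b, Il6 and Ifng and the chemokine Ccl5 were below the lower limit in the mean, with Tnf at 4.39 ± 0.19, Il1b at 4.29 ± 0.34, Il6 at 3.47 ± 0.25, Ifng at 3.43 ± 0.28 and Ccl5 at 4.78 ± 0.35. The chemokines Ccl2 (5.27 ± 0.35) and Cxcl10 (5.25 ± 0.28) lay between the limits and Cxcl1 (5.57 ± 0.30) above the upper. Of 16 interferon-responsive genes 11 (68.8%) were within the range, not far from the share of all clusters, with Ifi27 (7.24 ± 0.22), Mx2 (6.15 ± 0.22) and the signalling factor Irf9 (6.09 ± 0.37) the highest and Irf1 (3.98 ± 0.13), Mx1 (3.89 ± 0.17) and Oasl (3.87 ± 0.25) the lowest.

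The state of the tissue at the time of collection was read from genes that respond within minutes or hours. Of 28 immediate early genes 26 (92.9%) were within the background range, beside 56.6% of all clusters. Jun (6.08 ± 0.21) and Egr1 (6.06 ± 0.17), transcription factors that many resting cells also hold, were above it. Junb (4.66 ± 0.32) and Nr4a1 (3.98 ± 0.16) were below both limits. Genes that respond to glucocorticoids were in the middle and upper bands. The kinase Sgk1 was at 8.42, 8.12, 8.30 and 8.70 and the receptor itself, Nr3c1, at 8.00 ± 0.11, while Tsc22d3 (6.52 ± 0.18) was above and Fkbp5 (5.18 ± 0.34) between the limits. Of 14 clock genes 11 were above the upper limit, beside 43.4% of all clusters. Clock (7.80 ± 0.20), Bhlhe41 (7.29 ± 0.12) and Nr1d1 at 7.37, 6.82, 6.71 and 7.18 were the highest, and Per2 at 4.76, 4.77, 4.85 and 4.84 the lowest. Dbp, a target of the clock that cycles widely, was at 6.36, 6.20, 6.14 and 6.12, a range of 0.24 log2 units over the rats. Chaperones of the endoplasmic reticulum and cytosol were high, with Hsp90b1, Hsp90ab1 (10.63 ± 0.16) and Hspa5 (10.05 ± 0.13) leading 18 genes whose median lay at percentile 82.3. Of 11 genes of cell division 10 (90.9%) were within the background range, beside 56.6% of all clusters. Cdk1, the kinase that starts mitosis, was at 2.76, 3.30, 2.98 and 2.81 and Top2a at 3.51, 4.95, 3.90 and 4.16. The exception was Pcna (7.92 ± 0.28), which also serves DNA repair.

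Energy metabolism held a large part of the upper ranking. Of 41 genes of oxidative phosphorylation 19 were high and 9 upper, with a median at percentile 89.1. Cox7b, Atp5mc3 (10.68 ± 0.15) and Ndufc2 (10.65 ± 0.11) were the highest, and the lowest were forms of cytochrome oxidase subunits that other tissues use, Cox4i2 (3.98 ± 0.06), Cox8c (3.74 ± 0.30) and Cox8b (3.56 ± 0.11). Of 24 proteasome genes 13 were high, with a median at percentile 90.9, and Psmb8 and Psmb9, the inducible subunits, were the lowest. Glycolytic genes were less even. The brain forms Aldoc and Ldhb (10.08 ± 0.27) and the muscle and general form Aldoa (9.38 ± 0.15) were high, Eno2, the neuronal enolase, was at 8.66 ± 0.17, and Hk2 (4.65 ± 0.05), Slc2a3 (4.13 ± 0.14) and Eno1 were below both limits. The ribosomal proteins, of which cells need near equal amounts, ran from 11.51 ± 0.21 for Rpl37a to 3.47 ± 0.18 for Rpl4. Genes often used as references also differed in steadiness. Actin (Actb) was at 7.84, 7.77, 7.86 and 7.80, within 0.09 log2 units over the rats, while Rplp0 was at 6.57, 6.43, 4.67 and 5.78. Of 16 genes of iron and copper handling the superoxide dismutase Sod1 (10.12 ± 0.11) was high, and the haem oxygenase Hmox1 (4.00 ± 0.09), the chaperone Ccs (4.22 ± 0.12) and Heph (4.42 ± 0.07) were below both limits.

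Few clusters differed much between the healthy rats, and most of the 15 named genes with the largest SD fell into recognizable groups. Clusters without a single symbol could not be placed in a group. An SD above 1 was found for 35 clusters with all 4 rats and for 17 without rat 195. The largest SD of a named gene belonged to Tnnt3, a troponin of fast skeletal muscle, at 4.94, 7.90, 5.18 and 4.76. Rat 194 was 2.73 log2 units above the next rat. Other skeletal muscle genes among the 15 with the largest SD moved with it. The myosin light chains Myl11 and Myl1 were at 4.40, 6.44, 4.47 and 4.01 and 4.59, 6.81, 5.28 and 4.66, the actin-binding protein Xirp2 at 4.07, 6.18, 4.55 and 3.94, and the muscle carbonic anhydrase Car3 at 4.80, 6.72, 5.03 and 4.35. In each of them rat 194 was the highest and the other 3 rats lay near or below the background limits. The organ list held 6 measured muscle genes. Rat 194, which was highest in 1041 of all 8793 clusters, was highest in 5 of the 6 muscle genes. Besides Tnnt3 these were troponin Tnni2 at 4.54, 6.27, 4.88 and 4.56, creatine kinase Ckm at 4.99, 5.99, 5.32 and 4.90 actinin Actn3 at 4.21, 5.32, 4.41 and 4.32, and parvalbumin (Pvalb) at 7.54, 7.67, 6.95 and 7.34. Pvalb, which neurones also use, was above both limits in every rat, with rat 194 only just above rat 193. The sixth, the embryonic myosin Myh3, was at 3.77, 4.14, 4.26 and 3.89 and stayed below the lower limit. Whether muscle tissue came with that cord was not tested.

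The second group was that of the meninges. Besides Lum and Dcn it held myocilin (Myoc), a secreted protein of connective tissue, at 6.63, 5.03, 6.63 and 4.67, where rats 193 and 195 were almost equal and both 1.59 or more above the other 2. The matrix Gla protein Mgp followed another order, at 8.30, 6.66, 5.94 and 5.26, with rat 193 highest and rat 195 below rat 194. The third group was made of receptor and other genes that were highest in rat 195. The olfactory receptors Or2t44 and Or2ak4c were at 3.31, 3.70, 5.55 and 3.01 and 4.41, 5.12, 6.97 and 5.48, Or5ae1 at 4.41, 5.35, 6.20 and 3.80, and the gene with the symbol G4 at 2.72, 3.23, 5.26 and 3.22. Without rat 195 the SD of Or2t44 fell from 1.14 to 0.35 and that of G4 from 1.13 to 0.29. Among the 100 clusters with the largest SD of all 8793, rat 195 was the farthest from the median of the others in 67, rat 193 in 12, rat 194 in 11 and rat 196 in 10, and all 11 of rat 194 were higher there. Of the 67 of rat 195, 37 were higher in that rat than in the others and the rest were lower. Among the 100 with the largest SD and a mean above the upper limit, rat 195 was the farthest in 69. It was higher in 16 of these and lower in the rest. The groups above include no set of genes lowest in rat 195. The chromatin protein gene Cbx3 at 5.04, 6.24, 6.81 and 7.54 and the pituitary hormone gene Prl at 4.61, 5.79, 4.03 and 3.40 belonged to no group. Measured against clusters of like mean, Tnnt3 and Lum again led the named genes, with an SD of 8.58 times the median of such clusters for Tnnt3 and 8.52 times for Lum, and the receptors Vnr1 and Or8b12 took the places of Or2t44 and G4 among the first 15.

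**Figure D5:**
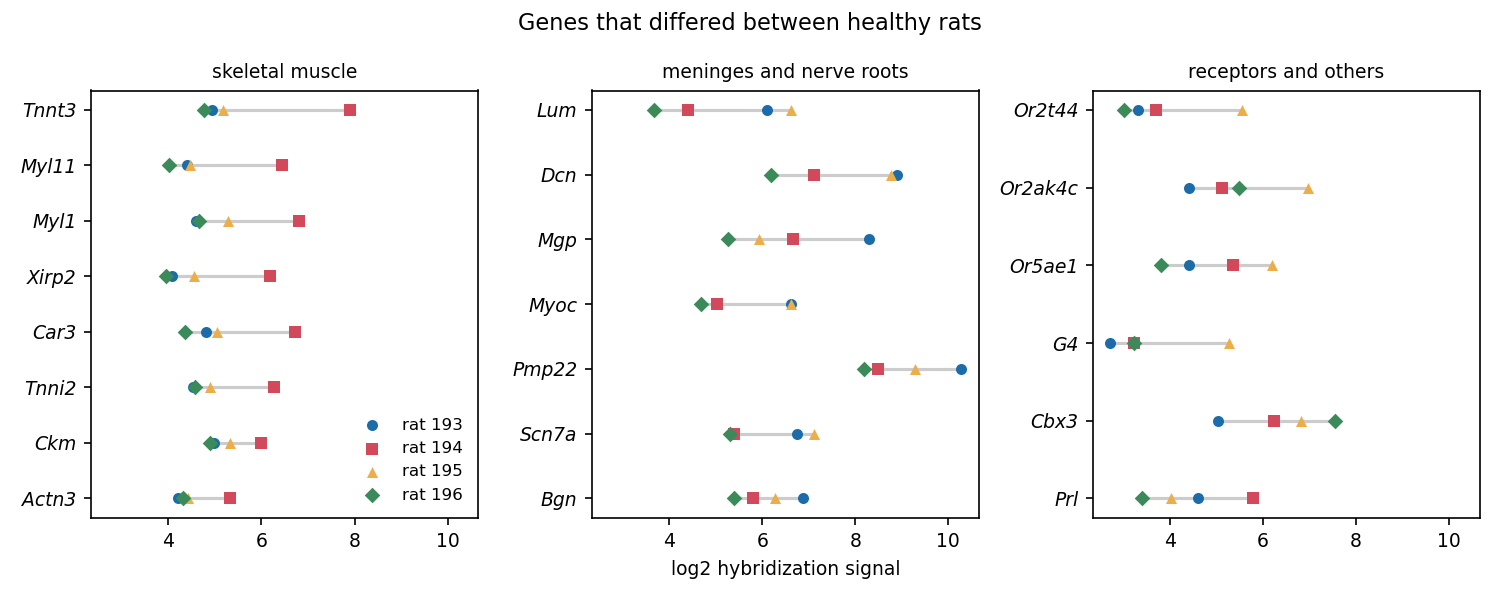
Log2 hybridization signal (horizontal axis) of genes that differed between the healthy rats, 1 symbol for each rat and a grey line over their range, in 3 panels: skeletal muscle genes, genes of meninges and nerve roots, and receptors with other genes. Rat 194 stands to the right in all 8 muscle genes, rats 193 and 195 in 6 of the 7 meningeal and root genes, and rat 195 in Or2t44, Or2ak4c, Or5ae1 and G4.

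The 10 steadiest named genes of the top 10 percent differed little between the rats. The proton pump subunit Atp6v1f was at 9.78, 9.73, 9.78 and 9.76, an SD of 0.02, and the chaperonin subunit Cct5 at 9.33, 9.33, 9.28 and 9.29, an SD of 0.03. The 14-3-3 proteins Ywhab (10.99 ± 0.03) and Ywhae (11.75 ± 0.03), the kinase subunit Csnk2a1 (9.12 ± 0.03), the membrane protein Tmeff1 (9.45 ± 0.03), the immunophilin Fkbp1a (9.77 ± 0.05), the cytokine receptor kinase Jak1 (9.36 ± 0.05), Ccdc50 (9.89 ± 0.05) and the small GTPase Rhoa (10.64 ± 0.05) complete the 10. Their values over the rats spanned at most 1.09-fold, against 8.81-fold for Tnnt3.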

How the data were processed

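RNA of the spinal cord of 4 healthy rats was measured on 4 exon arrays. In Partek the authors applied RMA background correction after adjusting for GC content, and quantile normalization over all 8 chips. They averaged over the core probe sets of every gene on a log2 scale. The deposited table holds log2 values for 8793 transcript clusters. Their distributions on the 4 healthy arrays are not equal, with interquartile ranges from 2.23 to 2.93. The submitters' processing notes also name Affymetrix Expression Console and the rat genome build rn4. The methods mention batches and state that they had no significant effect, and no label says which rat belonged to which. The sources name 1 cord per array and separate rats. The SD therefore holds differences between animals together with those of dissection, amplification and hybridization, which cannot be told apart.

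The values were used as they stand, with Python 3.11.15, numpy 2.4.6, pandas 2.3.3 and matplotlib 3.10.9. Samples were grouped by their titles. Clusters were named by the symbol of the platform table where it gave 1, and 7584 of these 7603 symbols were found in RefSeq. Where several clusters carried a symbol (14 genes), the highest stood for the gene. With 1 group there was no contrast, so that no test was run and no p-value is given. Precision is limited by the small number of arrays. The 49 gene lists, the members and the background reference were chosen with earlier results of these data known. The text names the 30 genes with the highest mean, the 15 with the largest SD, the 15 with the largest SD relative to clusters of like mean (20 bins), the 10 with the smallest SD in the top 10 percent, the defining markers of each list, and its 3 highest and 3 lowest members, beside all Hox genes. Other genes in the text (Sv2c, Gabrb1, Cxcl1, Calca, Prph, Eno2, Bgn in a plot, the muscle genes of the organ list and others of the background reference) were chosen after their values were seen. Promoters came from RefSeq (GRCr8). The scripts were tested on simulated data. Alternatives were the median over rats, other scaling, each rat left out, other background references and percentiles, other rules for clusters and lists, and the reference with all receptor symbols, the last chosen after seeing the data.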

Additional observations from a re-analysis of the deposited data

Results flagged for a closer look

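In all, 208 sets of 4 values were looked at. They were 157 named genes, the medians of the 49 lists, background lists included, and the median and interquartile range of the arrays. In 14 sets (6.73%) 1 rat had a gap to the nearest other rat, divided by the whole range of the 4, above Dixon's critical value at the 95% level for groups of 4. Over all 8793 clusters it was 466 (5.30%), so that the share among these sets was near that of the whole array. Chance gives about 1 in 20. The rat set apart was 195 in 5 sets, 193 in 4, 196 in 3 and 194 in 2.

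Rat 195 was lowest for the oligodendrocyte enzyme Enpp2 (ratio 0.9632, 10.60 against 11.29 to 11.31), for the astrocyte filament Gfap (0.9036, 8.56 against 9.05 to 9.11), for Gpm6b (0.8665, 11.50 against 11.91 to 11.98) and for the median of the GABA and glycine receptors (0.8461, 6.64 against 7.42 to 7.56). It was highest for the median of the olfactory, vomeronasal and taste receptors (0.8421, 3.98 against 3.37 to 3.47). The array of rat 195 had a narrower spread of values as a whole, and the part of this in each difference was not tested.

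Rat 194 was highest for the muscle troponin Tnnt3 (0.8689, 7.90 against 4.76 to 5.18) and for the median of the inhibitory neurone genes (0.8956, 5.95 against 5.79 to 5.81). Rat 196 was highest for the neurofilament Nefm (0.8783, 12.31 against 12.06 to 12.09), for the tachykinin Tac1 (0.9033, 8.10 against 7.47 to 7.53) and for Cdc42 (0.859, 11.35 against 11.03 to 11.08). Rat 193 was lowest for Selenot (0.8482, 11.08 against 11.30 to 11.34), for Tmeff1 (0.8952, 9.40 against 9.46 to 9.47), for the median of the forebrain and cerebellar genes (0.8861, 4.26 against 4.51 to 4.54) and for that of the chaperones (0.8508, 7.20 against 7.41 to 7.45). Except for Tnnt3, all of these gaps were under 1 log2 unit.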

How the results depend on the processing

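The share of clusters within the background range (56.6%, limit 5.31) was 54.3% to 58.5% with each rat left out, and 54.5% to 56.7% by the median over rats and under both other scalings. It depended on the reference: 61.6% (limit 5.61) with receptors alone, 55.5% (5.26) with genes of other organs alone, 43.4% (4.72) at percentile 90 and 70.9% (6.30) at percentile 99 of the reference, and 45.6% (4.81) with all receptor symbols, chosen after seeing the data. The sides of the range that genes near 5 fall on therefore follow the reference, and for 11 of 47 lists the number of members within it moved with the last.

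The median percentile of a list moved by more than its spread over rats in 27 of 490 recalculations. With each rat left out, the list of other organs ran from 23.8 to 24.7, that of sterol synthesis from 80.9 to 82.7, that of oligodendrocyte precursors from 54.1 to 56.4, and that of oxidative phosphorylation from 88.3 to 89.7. The list of other organs was at 24.4 and 24.5 under the 2 scalings, and the immediate early genes at 36.5 by the median. With only clusters of 1 symbol ranked, the percentiles were 93.4 for neurones, 86.0 for synaptic vesicles, 92.4 for myelin, 91.4 for astrocytes, 66.9 for the clock, 83.0 for sterol synthesis, 66.9 for iron and copper, 23.4 for other organs, 90.5 for oxidative phosphorylation and 92.2 for the proteasome. Without genes that another list holds they were 93.4 for neurones, 22.1 for sensory ganglion, 67.7 for MHC class I, 63.7 for iron and copper, 86.4 for ribosomal proteins and 91.6 for the proteasome. Of the SDs of 157 named genes, 44 moved without rat 195 and 80 when the arrays were scaled to 1 interquartile range. No paired analysis was possible because only 1 group was described and no 2 samples share a replicate number.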
